A study of Mus musculus with 8 samples.

Results

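The Fc receptor genes Fcgr1, Fcgr3, Fcgr4, Fcgr2b, Fcer1g and Fcgrt were followed in dendritic cells that had engulfed ferroptotic tumour cells. They were taken from the deposited count table by gene identifier. All 6 of the 6 genes were found among the 55487 genes of the table, and 6 of 6 passed the filter on low counts that left 15411 genes to test. The cells were mouse bone marrow-derived dendritic cells (BMDC), wild type (WT), from female C57/bl6 mice aged 6 to 8 weeks, grown for 10 days with 20 ng/ml GM-CSF. The control group, BMDC, was 4 libraries of untreated cells. The other group, BMDC-fer, was 4 libraries of BMDC that were co-cultured for 4 h with ferroptotic Jurkat cells and then sorted for cells carrying that cargo. The cargo, Jurkat, is a long-established line of human leukemic T cells and was killed with 0.5 µM ML162, a compound that blocks the lipid peroxide-repairing enzyme GPX4, for 14 h.

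The samples were collected independently, although the labels do not say which animals each came from. Nothing in the sources used here says that the untreated BMDC passed through the sorter, so sorting, staining and co-culture cannot be told apart from the cargo. Such cultures also hold macrophage-like cells besides dendritic cells. In bulk RNA, fewer cells of a type and less RNA per cell cannot be told apart. How many reads of the human cargo were counted on mouse genes was not measured here.

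Fc receptors bind the constant tail of antibodies. Fcgr1, Fcgr3 and Fcgr4 encode the activating receptors of mouse myeloid cells for immunoglobulin G (IgG). They reach the surface and signal through the common gamma chain, encoded by Fcer1g, whose immunoreceptor tyrosine-based activation motif (ITAM) is phosphorylated by Src-family kinases such as Lyn and then recruits the kinase Syk. Fcgr2b encodes the inhibitory receptor, which carries an inhibitory motif (ITIM) in its own tail and recruits the lipid phosphatase SHIP1, encoded by Inpp5d. In dendritic cells the balance between the activating and the inhibitory receptors is known to set the threshold for maturation by IgG immune complexes. Fcgrt encodes the neonatal receptor FcRn, a relative of MHC class I that pairs with beta-2 microglobulin (B2m), binds IgG and albumin in acidic endosomes and returns them to the surface, and that also routes immune complexes to antigen presentation.

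In the GENCODE M21 annotation of GRCm38 (mm10, the build named in the submitters' processing notes), a single stretch of chromosome 1 holds 4 of the genes. Fcgr2b lies at chr1:170958617-170976547 on the minus strand, Fcgr4 at chr1:171018920-171029761 on the plus strand, Fcgr3 at chr1:171051174-171064935 on the minus strand and Fcer1g at chr1:171229572-171234365 on the minus strand. Fcgr1 lies at chr3:96282909-96293969 and Fcgrt at chr7:45092990-45103851, both on the minus strand.

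The extracellular parts of Fcgr3 and Fcgr2b are close copies, which bears on how reads were assigned. The longest stretch that their spliced transcripts share is 129 bases, all coding, and it spans exons 3 and 4 of each gene (Fcgr2b at chr1:170966674-170968081 and Fcgr3 at chr1:171054167-171057792, GRCm38, minus strand, with the intron between left out).
Shared by Fcgr2b and Fcgr3: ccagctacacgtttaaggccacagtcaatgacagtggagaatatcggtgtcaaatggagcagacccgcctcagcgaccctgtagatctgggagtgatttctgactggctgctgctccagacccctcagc
Of the 50-base words of Fcgr3, 9.58% occur in another gene, all of them in Fcgr2b. Of those of Fcgr2b, 6.95% occur in another gene and 2.92% in Fcgr3. At 150 bases the share was 0 for Fcgr3 and 1.92% for Fcgr2b, and no 50-base word of Fcgr1, Fcgr4, Fcer1g or Fcgrt occurred in another gene. How reads matching several places were counted is not given in the sources used here, so the values of Fcgr3 and Fcgr2b carry that uncertainty. An antisense gene, Gm38204, overlaps 155 exon bases of Fcgr2b (2.68%), and its reads cannot be told from those of Fcgr2b without strand.

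The promoters of the activating receptor genes are known to respond to interferon and to the myeloid factor PU.1. The 150 bases before a RefSeq transcript start (GRCm38.p6) are shown for the 4 IgG receptor genes that the comparison of activating and inhibitory receptors rests on, and for Fcgrt, the gene whose change passed the test. Fcgr3 had 2 such starts, of which 1 is shown. Capitals mark matches, on either strand, to the gamma-activated site TTCNNNGAA, to the interferon-stimulated element (GAAA, any 2 bases, GAAA) or to the PU.1 core GAGGAA, which reads TTCCTC on the opposite strand.
Fcgr1, chr3:96293970-96294119, minus strand: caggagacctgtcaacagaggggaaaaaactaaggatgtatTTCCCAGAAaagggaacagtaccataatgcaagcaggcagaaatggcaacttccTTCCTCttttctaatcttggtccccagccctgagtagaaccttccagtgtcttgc
Fcgr3, chr1:171059395-171059544, minus strand: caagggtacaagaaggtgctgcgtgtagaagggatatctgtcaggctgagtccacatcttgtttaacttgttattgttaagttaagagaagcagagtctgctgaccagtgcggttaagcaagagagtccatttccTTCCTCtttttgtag
Fcgr4, chr1:171018776-171018925, plus strand: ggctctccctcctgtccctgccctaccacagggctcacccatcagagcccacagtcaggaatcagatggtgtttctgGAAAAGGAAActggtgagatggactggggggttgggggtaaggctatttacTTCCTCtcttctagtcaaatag
Fcgr2b, chr1:170976072-170976221, minus strand: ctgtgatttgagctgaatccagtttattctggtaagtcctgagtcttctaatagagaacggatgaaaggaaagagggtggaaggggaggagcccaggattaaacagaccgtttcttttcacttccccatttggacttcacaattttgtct
Fcgrt, chr7:45103823-45103972, minus strand: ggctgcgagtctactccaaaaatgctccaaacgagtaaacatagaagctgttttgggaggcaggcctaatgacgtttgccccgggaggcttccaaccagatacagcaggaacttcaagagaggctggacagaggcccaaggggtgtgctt
Within 250 bases before the start, Fcgr1 held a TTCNNNGAA match 109 to 101 bases before the start and a PU.1 core at 55 to 50. Fcgr4 held a match to the interferon-stimulated element at 73 to 64 and a PU.1 core at 22 to 17. Fcgr3 held a PU.1 core at 15 to 10, which lies at 6 to 1 before its other start. None of these matches overlapped another. No match to the 3 motifs was found in the windows of Fcgr2b, Fcer1g and Fcgrt. Over 32851 RefSeq promoters, windows of the same length held TTCNNNGAA in 7.02%, the interferon-stimulated element in 2.98% and GAGGAA in 23.3%, so a PU.1 core is common. A match is a run of letters and not a measured binding site.

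Between BMDC-fer and BMDC, Fcgrt was the 1 gene of the 6 whose change passed the test, and it fell. The activating receptor genes and Fcer1g were higher in BMDC-fer in each same-numbered pair of libraries, but none of them passed the test over all 8 libraries. Fcgr2b was higher in 2 of 4 pairs and lower in 2 of 4. Pairs follow the numbers in the sample titles, and the values do not separate replicate 3 from 4 as partners. Values are CPM (read counts scaled to library size after TMM normalization), and a gene was called at an edgeR adjusted p of 0.05 or less with a log2 fold change of at least 0.58 in either direction, the thresholds of the study's methods. By this rule 1 of 6 genes was called, where 9.38% of the 15411 tested genes were called in either direction 5.91% lower and 3.47% higher. Of all tested genes 1445 were called, 534 higher and 911 lower, and with total counts in place of TMM the split was 300 higher and 1179 lower.

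**Figure D1:**
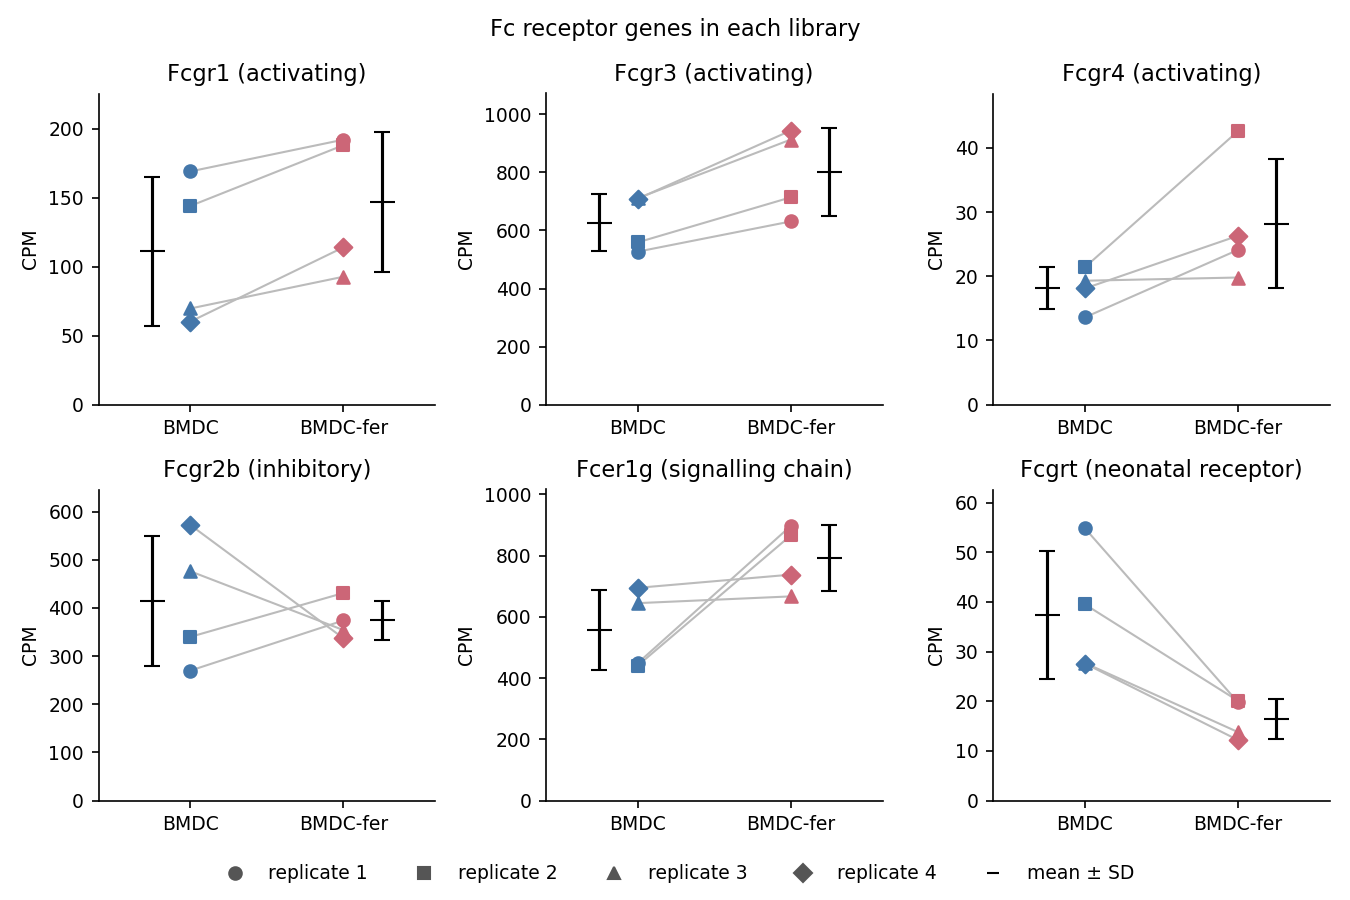
Normalized read counts (CPM, linear axis from 0) of the 6 Fc receptor genes in each of the 4 BMDC and 4 BMDC-fer libraries, with lines joining libraries of the same replicate number and black bars for the mean and SD of 4. Fcgrt is lower in BMDC-fer in every library, the activating genes and Fcer1g are higher along every line but overlap between groups, and the lines of Fcgr2b cross.

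Among the activating receptors, Fcgr3, the low-affinity receptor, was the most abundant. Its level was 527, 559, 711 and 709 CPM in BMDC replicates 1 to 4 and 631, 714, 913 and 944 CPM in BMDC-fer replicates 1 to 4. Replicates 1 and 2 were the lower ones in both groups, and the groups overlapped. The group means were 627 ± 97.5 and 801 ± 152 CPM (BMDC first, SD, n = 4 per group). The log2 fold change was 0.35 (standard error, SE, 0.18, 95% interval -0.04 to 0.75, edgeR adjusted p = 0.21). Over the 16 alternatives its adjusted p ran from 0.000425 to 0.399, and its fold change stayed under the threshold. Within same-numbered pairs BMDC-fer was 1.2, 1.28, 1.28 and 1.33 times BMDC, so the pairs moved by nearly the same amount.

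Fcgr1, the high-affinity receptor for IgG, differed more between replicates than between groups. It was 169, 144, 69.7 and 60.2 CPM in BMDC and 192, 188, 92.7 and 114 CPM in BMDC-fer. Replicates 1 and 2 were the high ones in both groups, 2.41 times replicates 3 and 4 in BMDC and 1.84 times in BMDC-fer, which is the opposite order to Fcgr3. The group means were 111 ± 54 and 147 ± 50.9 CPM (BMDC first, SD, n = 4 per group). The log2 fold change over all libraries was 0.40 (SE 0.38, 95% interval -0.45 to 1.26, edgeR adjusted p = 0.502). In same-numbered pairs BMDC-fer was 1.14, 1.3, 1.33 and 1.89 times BMDC. In replicates 3 and 4 alone, where 35.7% of all tested genes were called, its log2 fold change of 0.68 was called, with an edgeR adjusted p of 0.00048 within a range of 0.00048 to 0.756 over the 16 alternatives.

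Fcgr4, the receptor that binds IgG2a and IgG2b, was the least abundant of the activating genes. It was 13.6, 21.4, 19.3 and 18.1 CPM in BMDC and 24.1, 42.6, 19.8 and 26.3 CPM in BMDC-fer. Replicate 2 was the high library of both groups, and BMDC-fer replicate 3 lay within the range of BMDC. The group means were 18.1 ± 3.28 and 28.2 ± 9.99 CPM (BMDC first, SD, n = 4 per group). Its log2 fold change of 0.64 exceeded the fold threshold, and its edgeR adjusted p of 0.123 did not pass (SE 0.25, 95% interval 0.08 to 1.20). In same-numbered pairs BMDC-fer was 1.77, 1.99, 1.03 and 1.45 times BMDC.

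The inhibitory receptor gene Fcgr2b had no common direction. It was 270, 340, 476 and 572 CPM in BMDC and 374, 431, 354 and 337 CPM in BMDC-fer. BMDC replicates 3 and 4 were the highest and BMDC replicate 1 the lowest of the 8 libraries, with BMDC-fer between them. The group means were 414 ± 135 and 374 ± 40.8 CPM (BMDC first, SD, n = 4 per group), and the log2 fold change was -0.15 (SE 0.23, 95% interval -0.66 to 0.36, edgeR adjusted p = 0.688). BMDC-fer was 1.38 and 1.27 times BMDC in replicates 1 and 2, and 0.744 and 0.589 times BMDC in replicates 3 and 4. Of all tested genes, 12.2% were higher in both of the first and lower in both of the second.

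In both groups the libraries of replicates 1 and 2 lay apart from those of replicates 3 and 4 over all genes. The first principal component (39.7% of the variance) separated the groups, at -66.7 to -19.8 in BMDC and 7.3 to 67 in BMDC-fer. On the second (37.3%) replicates 1 and 2 were at 32.8 to 38.7 in both groups. Replicates 3 and 4 were at -72.2 and -75.6 in BMDC and at -2.17 and 4.09 in BMDC-fer. A test of whether the change differed between these sets was therefore added after the data were seen (edgeR interaction term over all tested genes). Replicates 1 and 2 gave Fcgr2b a log2 fold change of 0.41 and replicates 3 and 4 one of -0.59, which differed (95% interval of the difference -1.42 to -0.58, edgeR adjusted p = 0.0035). For Fcer1g it was 0.99 and 0.08, a difference of -0.92 (SE 0.12, edgeR adjusted p = 0.0007). The other 4 genes did not pass, with differences from -0.62 for Fcgr4 to 0.39 for Fcgr1. So 2 of 6 genes passed, where 37.8% of all tested genes did, and the sets are not groups named by the study.

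**Figure D2:**
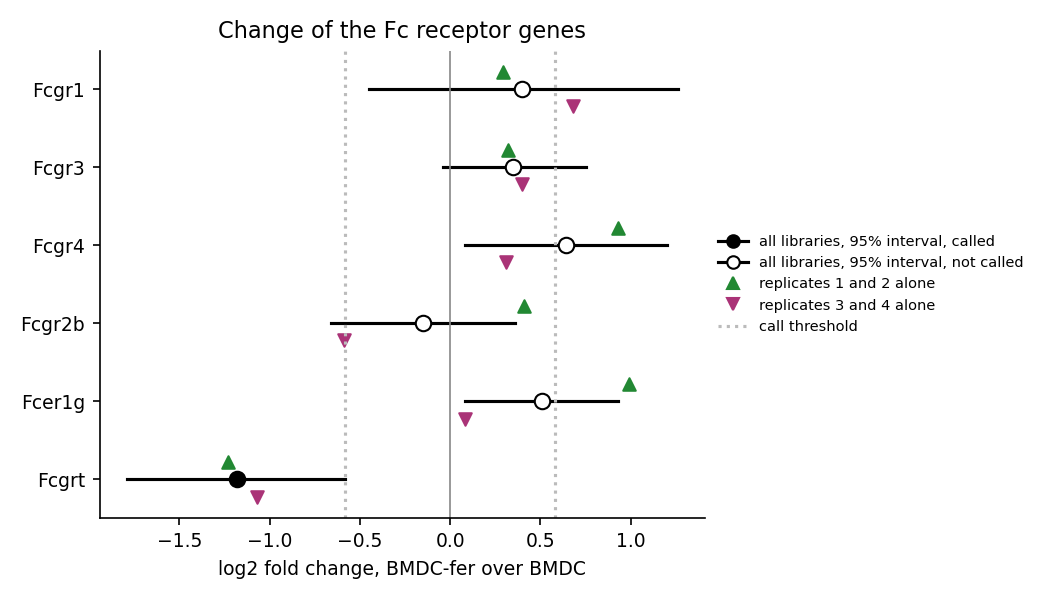
Log2 fold change of BMDC-fer over BMDC for each Fc receptor gene, with circles and lines for the estimate and 95% interval from all 8 libraries, and triangles for replicates 1 and 2 alone or replicates 3 and 4 alone. Fcgrt is the filled circle at -1.18, the triangles of Fcgr2b lie on opposite sides of 0, and those of Fcer1g are at 0.99 and 0.08.

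Fcer1g, the signalling chain, was higher in BMDC-fer mainly in replicates 1 and 2. Its level was 449, 441, 645 and 695 CPM in BMDC and 897, 866, 667 and 738 CPM in BMDC-fer. In BMDC replicates 1 and 2 were the low libraries, and in BMDC-fer they were the high ones. The group means were 557 ± 131 and 792 ± 108 CPM (BMDC first, SD, n = 4 per group). Over all libraries this gave 0.51 on the log2 scale (SE 0.19, 95% interval 0.08 to 0.93, edgeR adjusted p = 0.111). BMDC-fer was 2 and 1.97 times BMDC in replicates 1 and 2, and 1.03 and 1.06 times in replicates 3 and 4. In replicates 1 and 2 alone, where 19.4% of all tested genes were called, the change was called, with an edgeR adjusted p of 0.00292, the lowest of a range that reached 0.363 over the 16 alternatives.

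Fcgr1, Fcgr3, Fcgr4 and Fcer1g were thus each higher in BMDC-fer in 4 of 4 same-numbered pairs, as were 22% of all tested genes. Their directions held under every scaling tried. With the replicate number as a block none of the 4 was called.

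The neonatal receptor gene Fcgrt fell. It was 54.8, 39.5, 27.7 and 27.6 CPM in BMDC and 19.8, 20.1, 13.8 and 12.2 CPM in BMDC-fer, from counts of 2379, 1878, 1173 and 1106 against 977, 822, 577 and 466. The highest BMDC-fer library was below the lowest BMDC library, as it was for 11.6% of all tested genes. The group means were 37.4 ± 12.9 and 16.5 ± 4.06 CPM (BMDC first, SD, n = 4 per group). The log2 fold change was -1.18 (SE 0.27, 95% interval -1.79 to -0.58, edgeR adjusted p = 0.0267), a level 0.44 times that of BMDC with an interval of 0.289 to 0.671. In same-numbered pairs BMDC-fer was 0.361, 0.509, 0.498 and 0.442 times BMDC, and the change did not differ detectably between the sets of replicates (difference 0.15, 95% interval -0.31 to 0.62, edgeR adjusted p = 0.592). Without BMDC-fer replicate 2, 3 or 4 the call was lost, with edgeR adjusted p of 0.0506, 0.0711 and 0.0828 and log2 fold changes of -1.29, -1.10 and -1.06. Over the 16 alternatives the adjusted p lay between 1.58e-05 and 0.0828.

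B2m, the light chain that Fcgrt shares with MHC class I, was 1534, 1543, 2175 and 2189 CPM in BMDC and 2703, 2525, 2169 and 2524 CPM in BMDC-fer. With group means of 1860 ± 372 and 2481 ± 224 CPM (BMDC first, SD, n = 4 per group), its log2 fold change of 0.42 did not pass (edgeR adjusted p = 0.145). It was higher in BMDC-fer in 3 of 4 same-numbered pairs.

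The balance of activating over inhibitory receptor transcript was read as the summed level of Fcgr1, Fcgr3 and Fcgr4 over that of Fcgr2b, in CPM per kilobase of exon. It was 8.14, 6.73, 5.49 and 4.52 in BMDC and 7.08, 6.96, 9.43 and 10.5 in BMDC-fer. In replicate 1 BMDC-fer was lower and in replicate 2 nearly equal, and in replicates 3 and 4 both BMDC-fer libraries lay above all BMDC libraries. The mean ratio was 6.22 ± 1.57 in BMDC and 8.49 ± 1.74 in BMDC-fer (SD, n = 4 each). On the log2 scale the ratio was higher in BMDC-fer by 0.46 on average, by -0.20, 0.05, 0.78 and 1.21 in the 4 pairs. As a score over chosen genes it was given no test. The absolute ratio depends on the 5790 exon bases used for Fcgr2b. In CPM without length it was 2.63, 2.13, 1.68 and 1.38 in BMDC and 2.27, 2.19, 2.89 and 3.22 in BMDC-fer, with the same difference of 0.46.

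**Figure D3:**
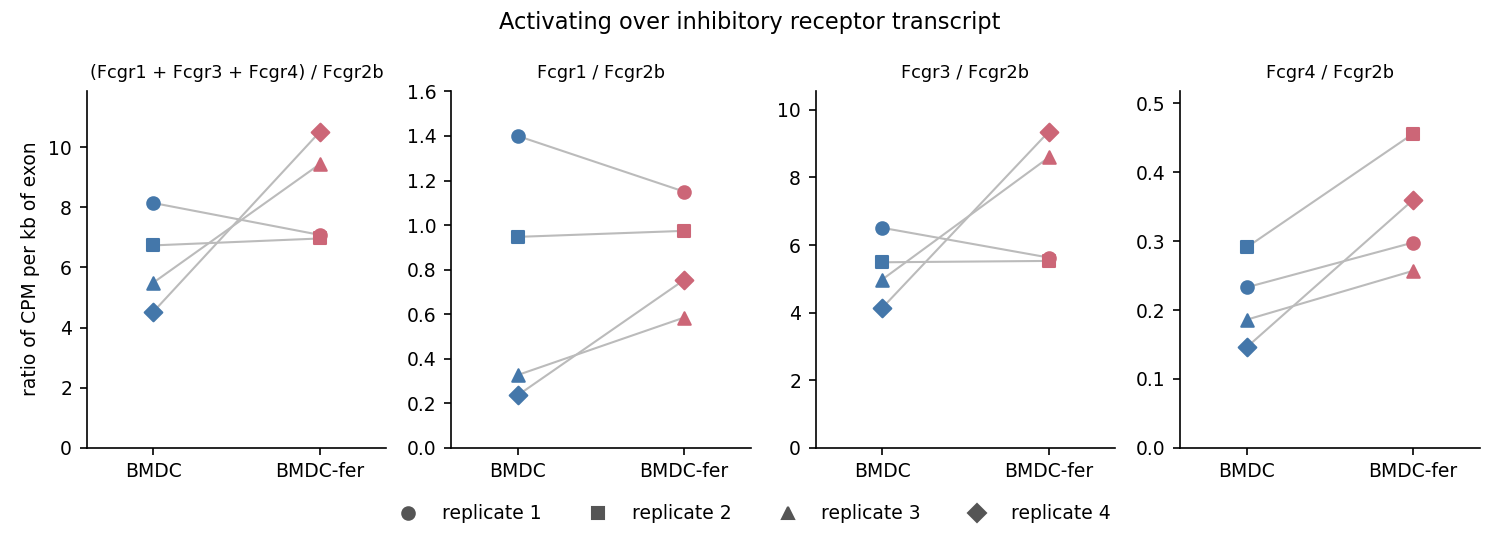
Ratio of activating receptor transcript to Fcgr2b transcript in each library, in CPM per kilobase of exon on linear axes from 0, for the summed activating genes and for each of them, with lines joining libraries of the same replicate number. The summed ratio is 7.08 and 6.96 in BMDC-fer replicates 1 and 2 and 9.43 and 10.5 in replicates 3 and 4, and the ratio of Fcgr4 to Fcgr2b is higher in BMDC-fer along every line.

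Taken singly, the ratio of Fcgr4 to Fcgr2b was higher in BMDC-fer in 4 of 4 pairs, although the groups overlapped. It was 0.233, 0.291, 0.186 and 0.146 in BMDC and 0.298, 0.456, 0.257 and 0.36 in BMDC-fer, a mean log2 difference of 0.69. For Fcgr3 over Fcgr2b the ratios were 6.51, 5.49, 4.98 and 4.14 in BMDC and 5.63, 5.53, 8.59 and 9.35 in BMDC-fer, a log2 difference of 0.44. Those of Fcgr1 over Fcgr2b were 1.4, 0.947, 0.327 and 0.236 in BMDC and 1.15, 0.974, 0.585 and 0.754 in BMDC-fer, a log2 difference of 0.57. Without Fcgr3, whose coding sequence partly matches that of Fcgr2b, the summed ratio differed by 0.57 on the log2 scale. It was 1.63, 1.24, 0.513 and 0.381 in BMDC and 1.45, 1.43, 0.842 and 1.11 in BMDC-fer. Fcgr2b remains in this ratio, so the part of shared reads was not tested. Fcgr3 made up most of the activating transcript throughout, from 79.9% to 91.6% in BMDC and from 79.5% to 91.1% in BMDC-fer. The share of Fcgr1 moved with replicate and little with cargo, from 17.2% and 14.1% in BMDC replicates 1 and 2 to 5.95% and 5.21% in replicates 3 and 4, against 16.3%, 14%, 6.2% and 7.2% in BMDC-fer.

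Set side by side per length, the genes kept nearly the same order in both groups. In BMDC the mean level was 638 ± 150 CPM per kilobase for Fcer1g, 361 ± 56.1 for Fcgr3, 71.6 ± 23.4 for Fcgr2b, 42.8 ± 20.8 for Fcgr1, 17.8 ± 6.13 for Fcgrt and 14.4 ± 2.61 for Fcgr4 (SD, n = 4 each). Fcgr2b overlapped with Fcgr1, Fcgr1 with Fcgrt and Fcgrt with Fcgr4, while Fcer1g, Fcgr3 and Fcgr2b did not overlap with one another. In BMDC-fer the mean level was 906 ± 124 CPM per kilobase for Fcer1g, 461 ± 87.7 for Fcgr3, 64.6 ± 7.04 for Fcgr2b, 56.6 ± 19.7 for Fcgr1, 22.5 ± 7.95 for Fcgr4 and 7.84 ± 1.93 for Fcgrt (SD, n = 4 each). There the last place went to Fcgrt, which no longer overlapped with any neighbour, and the neighbours that overlapped were Fcgr2b and Fcgr1. Fcer1g transcript exceeded the summed activating receptors in every library, 1.35, 1.28, 1.63 and 1.78 times in BMDC and 2.25, 1.91, 1.32 and 1.39 times in BMDC-fer.

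Of 13 genes of other Fc receptors 5 were tested. By edgeR 0 were called, where 9.38% of all tested genes were called. DESeq2 also called 0, where it called 13.3% of the genes it tested. In edgeR 0 had an unadjusted p under 0.05, and the median log2 fold change was -0.14 where all tested genes had 0.00. Fcer1a, the IgE-binding chain of the high-affinity IgE receptor and a second user of Fcer1g, had counts of 2, 0, 7 and 11 in BMDC and 0 in every BMDC-fer library, which is close to the floor of 3 counts (0.0607 to 0.0785 CPM by library). The chain was therefore measured in cells with almost no Fcer1a transcript.

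Downstream of the activating receptors, 24 of 24 signalling genes were tested, and 1 was called higher and 1 lower (8.33%, where 9.38% of all tested genes were called). The median log2 fold change was 0.01. Blnk, an adaptor that links Syk to phospholipase C gamma, rose from 23.5 ± 2.79 to 42.7 ± 4.56 CPM (SD over 4 libraries, log2 fold change 0.86 at an edgeR adjusted p of 0.00641) and was called in 16 of 16 alternatives. Pik3r1, a regulatory subunit of phosphoinositide 3-kinase, fell from 156 ± 40.4 to 83.7 ± 7.34 CPM (SD over 4 libraries, log2 fold change -0.90 at an edgeR adjusted p of 0.0193). Without BMDC-fer replicate 3 or 4 its edgeR adjusted p was 0.0564 and 0.0663, in a range of 7.43e-07 to 0.0663 over the alternatives, and in replicates 1 and 2 alone its log2 fold change, -0.42, did not reach the threshold. The kinases themselves did not pass. Syk was at 401 ± 91.6 CPM untreated and 366 ± 22.5 CPM with cargo (log2 fold change -0.13, edgeR adjusted p = 0.625), and Lyn was 176 ± 25.5 and 173 ± 19.8 CPM (log2 fold change -0.03, edgeR adjusted p = 0.894).

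On the inhibitory side, 10 of 10 signalling genes were tested, with a median of -0.01, and 1 was called (10%, where 9.38% of all tested genes were called). Cblb, a ubiquitin ligase that restrains tyrosine kinase signalling, fell from 22.3 ± 5.39 to 13.7 ± 1.11 CPM (SD over 4 libraries, log2 fold change -0.71 at an edgeR adjusted p of 0.0412). It was not called with the replicate block (edgeR adjusted p = 0.0529, in a range of 6.24e-05 to 0.103 over the alternatives) or without BMDC replicate 3 or 4 or any 1 BMDC-fer replicate, where the adjusted p was 0.084 to 0.103, nor without the filter on low counts (edgeR adjusted p = 0.0593) or in replicates 1 and 2 alone (edgeR adjusted p = 0.0909). Inpp5d, the phosphatase recruited by Fcgr2b, was 209, 217, 132 and 133 CPM in BMDC and 183, 187, 199 and 202 CPM in BMDC-fer, which again crossed between the sets of replicates (log2 fold change 0.16, edgeR adjusted p = 0.586). Ptpn6, the phosphatase SHP-1, was at 226 ± 85.4 CPM untreated and 219 ± 46.7 CPM with cargo (log2 fold change -0.05, edgeR adjusted p = 0.921). Of 18 phagocytic cup genes, which remodel actin around an opsonized particle, 18 were tested, with a median of -0.09. Of these 0 were called by edgeR, where 9.38% of all tested genes were called, and 3 had an unadjusted p under 0.05. DESeq2 called 0, where it called 13.3% of the genes it tested. Gsn, singled out after its values were seen, fell from 507 ± 79.9 to 341 ± 22.3 CPM (SD over 4 libraries, edgeR adjusted p = 0.0282). Its log2 fold change of -0.57 was just under the threshold.

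**Figure D4:**
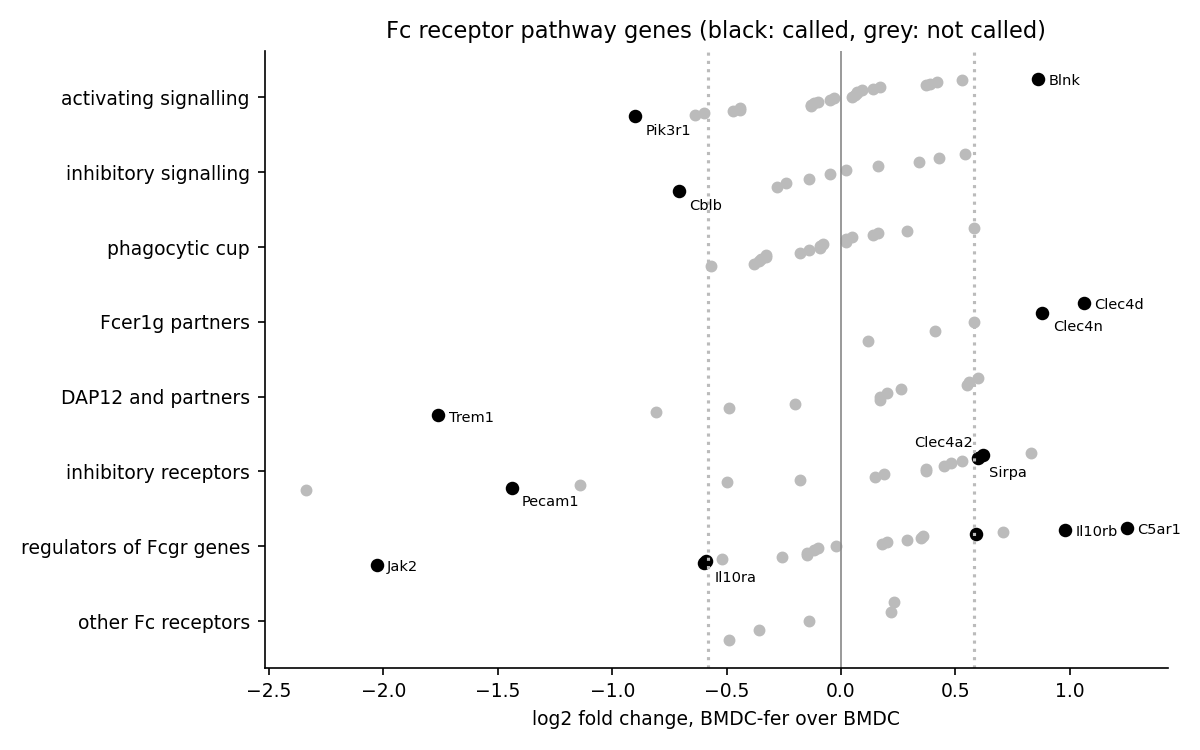
Log2 fold change of BMDC-fer over BMDC for every tested gene of 8 Fc receptor pathway lists, 1 row a list, with black points for called genes and dotted lines at the fold threshold. The activating signalling, inhibitory signalling and phagocytic cup lists centre near 0, and the called genes named beside their points range from Jak2 at -2.03 to C5ar1 at 1.25.

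Fcer1g also serves as the chain of lectin and other activating receptors. Of 6 such partners 5 were tested, with a median log2 fold change of 0.58. Of the 5, 2 were called higher and 0 lower (40%, where 9.38% of all tested genes were called). Clec4n (Dectin-2), which binds fungal mannans, was 1226, 1063, 1216 and 1261 CPM in BMDC and 2242, 1841, 2416 and 2277 CPM in BMDC-fer. It rose by a log2 fold change of 0.88 (SE 0.14, edgeR adjusted p = 0.00751) and was called in 16 of 16 alternatives. Clec4d, a relative of Mincle, rose from 139 ± 39 to 289 ± 55.3 CPM (SD over 4 libraries, log2 fold change 1.06 at an edgeR adjusted p of 0.0243). Without BMDC-fer replicate 3 or 4 its edgeR adjusted p was 0.0624 and 0.0679, in a range of 3.95e-06 to 0.0679 over the alternatives.

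DAP12, encoded by Tyrobp, is the other ITAM adaptor of myeloid cells. Tyrobp was 430, 437, 697 and 726 CPM in BMDC and 680, 692, 706 and 664 CPM in BMDC-fer, low in BMDC replicates 1 and 2 as Fcer1g was, and it was not called (log2 fold change 0.26, edgeR adjusted p = 0.396). The list of DAP12, its partner receptors and Hcst, which encodes a different adaptor, held 12 genes. Of the 12 genes 11 were tested, with a median of 0.17. Of these 0 were called higher and 1 lower (9.09%, where 9.38% of all tested genes were called). That gene was Trem1, an amplifier of inflammatory signalling, which fell from 49.6 ± 9.76 to 14.6 ± 3.89 CPM (SD over 4 libraries, log2 fold change -1.76 at an edgeR adjusted p of 0.00399, called in 16 of 16 alternatives).

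Among 15 other receptors that carry ITIMs, 15 were tested, with a median of 0.37. Of these 2 were called higher and 1 lower (20%, where 9.38% of all tested genes were called). With the replicate block 3 were called higher and 3 lower, where 13% of all tested genes were called. Sirpa, the receptor for the don't-eat-me signal CD47, rose from 789 ± 43.3 to 1193 ± 98 CPM (SD over 4 libraries, log2 fold change 0.60 at an edgeR adjusted p of 0.0153). It lost the call without BMDC replicate 3 (edgeR adjusted p = 0.051) or BMDC-fer replicate 2 (edgeR adjusted p = 0.0466, with a log2 fold change of 0.56 under the threshold), in a range of 1.13e-05 to 0.051 over the alternatives. Its log2 fold change was also under the threshold with total counts in place of TMM (0.50) and in replicates 3 and 4 alone (0.55). Clec4a2 (DCIR) rose from 120 ± 13.5 to 184 ± 20.1 CPM (SD over 4 libraries, log2 fold change 0.62 at an edgeR adjusted p of 0.0166). It lost the call on fold change without BMDC replicate 1 (just under 0.58, edgeR adjusted p = 0.035) and without BMDC-fer replicate 3 (0.57, edgeR adjusted p = 0.0464). It was also not called without BMDC-fer replicate 4 (edgeR adjusted p = 0.0544) or with total counts in place of TMM, where its log2 fold change was 0.54. Pecam1, an adhesion receptor with ITIMs, fell from 15.2 ± 1.9 to 5.59 ± 1.05 CPM (SD over 4 libraries, log2 fold change -1.44 at an edgeR adjusted p of 0.00366, called in 16 of 16 alternatives).

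Genes known to regulate Fc receptor expression, in the interferon gamma, interleukin-4, interleukin-10, TGF-beta and C5a pathways, moved in both directions. Of 20 listed 19 were tested, and 3 were called higher and 3 lower (31.6%, where 9.38% of all tested genes were called). The median was -0.02, so the list had no common direction. Jak2, a kinase of the interferon gamma receptor, was 463, 371, 405 and 388 CPM in BMDC and 142, 97.8, 82.2 and 76.8 CPM in BMDC-fer. It fell by 2.03 on the log2 scale (edgeR adjusted p = 0.00207, called in 16 of 16 alternatives). Il10rb, a chain of the interleukin-10 receptor, rose from 75 ± 6.02 to 148 ± 14.3 CPM (SD over 4 libraries, log2 fold change 0.98 at an edgeR adjusted p of 0.00268, called in 16 of 16 alternatives). The other chain, Il10ra, fell from 195 ± 31.2 to 128 ± 9.1 CPM (SD over 4 libraries, log2 fold change -0.60 at an edgeR adjusted p of 0.0245) and lost the call without BMDC replicate 3 or 4 or any 1 BMDC-fer replicate, where the edgeR adjusted p was 0.051 to 0.0754, and in replicates 1 and 2 alone (edgeR adjusted p = 0.0673).

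C5ar1, the receptor for the complement fragment C5a, which is known to raise Fcgr3 and lower Fcgr2b in myeloid cells, rose. It was 105, 132, 58.4 and 60 CPM in BMDC and 223, 256, 179 and 185 CPM in BMDC-fer (log2 fold change 1.25, edgeR adjusted p = 0.0251). All BMDC-fer libraries lay above all BMDC libraries, as for 11.3% of tested genes. Without BMDC replicate 3 or 4 or BMDC-fer replicate 1, 2 or 4 its edgeR adjusted p was 0.0548 to 0.069, in a range of 2.26e-07 to 0.069 over the alternatives. With total counts in place of TMM it was not called either (edgeR adjusted p = 0.0546), so the call held in 10 of 16 alternatives.

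The genes whose pattern over the 8 libraries was most like that of each Fc receptor gene were found by Pearson's r of log2(CPM + 0.5) among 11442 genes counted 100 times or more on average. These values are descriptions, since the libraries share groups and replicate sets. For Fcgr1 they were Fdxr (r = 0.998), St3gal5 (0.996) and Dok2 (0.990), an adaptor of inhibitory signalling. Those nearest to Fcgr3 were Scrn3 (r = 0.993), Cebpa (0.990), a myeloid transcription factor, and Osbpl11 (0.987). Fcgr4 had lower likeness, with Gm13509 (r = 0.967), Camk1 (0.962) and Gamt (0.959). Nearest to Fcgr2b were Sat1 (r = 0.982), Hpse (0.978) and Bphl (0.971). Fcer1g was followed by Neurl2 (r = 0.995), by Atp6v0c (0.989), a subunit of the lysosomal proton pump, and by Atp6v0c-ps2 (0.988), a pseudogene of the last that can share its reads. For Fcgrt they were Tnk2 (r = 0.990), Rassf5 (0.989) and AI839979 (0.989), of which Rassf5 and AI839979 were called lower in BMDC-fer. No gene appeared beside more than 1 of the 6.

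Markers of the cells such a culture can hold also moved. The 11 dendritic cell markers summed to 7535 to 18010 CPM in BMDC and 3406 to 8644 CPM in BMDC-fer. Without Cd74, the most abundant of them, the sums were 3726 to 8435 and 1862 to 3833 CPM. All 11 had a log2 fold change below 0. Of these 2 were called (18.2%, where 9.38% of all tested genes were called). With the replicate block 9 were called, where 13% of all tested genes were. Itgax, which encodes CD11c and was singled out after its values were seen, was at 1111 ± 294 CPM untreated and 1033 ± 247 CPM with cargo (edgeR adjusted p = 0.797). The 11 macrophage markers summed to 2925 to 3697 CPM in BMDC and 3463 to 5012 CPM in BMDC-fer, with 9 of 11 above 0. Of the 11, 0 were called higher and 1 lower (9.09%, where 9.38% of all tested genes were called). The called gene was Adgre1, which fell from 351 ± 39.2 to 201 ± 30.5 CPM (SD over 4 libraries, log2 fold change -0.81 at an edgeR adjusted p of 0.0119). Of the 12 neutrophil markers 11 had a log2 fold change below 0, with a median of -2.95. Of the 12, 5 were called lower (41.7%, where 5.91% of all tested genes were called lower), or 9 with the replicate block. Their sum, at 616 to 1257 CPM in BMDC and 742 to 1466 CPM in BMDC-fer, was mostly Mmp8, the exception (log2 fold change 0.50, edgeR adjusted p = 0.393), and without Mmp8 it was 53.8 to 276 and 21.1 to 59.3 CPM. Mast cell and basophil markers, which include other users of Fcer1g, summed to 39.1 to 69.3 and 15.1 to 35.2 CPM. Of the 4 tested, 0 were called by edgeR and 3 had an unadjusted p under 0.05. DESeq2 called 5 of the 10, where it called 13.3% of the genes it tested. Natural killer cell markers, which also mark cells using Fcgr3, summed to 7.16 to 15.7 and 0.934 to 4.78 CPM, nearly all of it Klrk1, the 1 of 6 that was tested, which was called lower (log2 fold change -2.16, edgeR adjusted p = 0.0418). Another 4 of the 6 had no more than 3 counts in any library. Summed B cell and T cell markers were at most 1.47 and 5.51 CPM, and of these Lck was called lower (edgeR adjusted p = 0.0482). The natural killer markers Gzma and Eomes were at 0 in every library. The part of these cells in the values of Fcgrt and of the other Fc receptor genes was not tested.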

How the data were processed

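Mouse mRNA was sequenced from 4 libraries of untreated BMDC and 4 of BMDC-fer. Raw counts per mouse gene were deposited by the authors, who had aligned reads with HISAT2 and assigned them with featureCounts (Rsubread), and these counts were taken as they are. The submitters' processing notes also name CASAVA, DESeq2 and mm10. Strand and the counting of multiply mapped reads are not given in the sources used here, and human counts were not analysed here. Groups and replicate numbers came from the sample titles.

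Of 55487 identifiers, 55141 had a symbol. Counts were tested in R 4.3.3 with edgeR 4.0.16 (TMM, filterByExpr with a count minimum of 10, quasi-likelihood test, Benjamini-Hochberg adjustment over all tested genes). Calls needed both an adjusted p of at most 0.05 and a log2 fold change of at least 0.58 up or down. Alternatives were DESeq2 1.42.0 (the authors' tool), other scalings, no filter, the replicate block, each library left out and each set of replicates alone. A covariate for the sets, their interaction with the change and a ratio without Fcgr3 were added after the data were seen. The tests were tried on simulated counts. CPM used TMM-scaled totals, and lengths are merged exons of GENCODE M21. Total counts were 39326672 to 50532209 per library, and the floor of 3 counts reflects counting error alone, because molecules were not tagged before amplification.

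Deviations from the group means correlated between same-numbered libraries with r of 0.432, 0.345, 0.3 and 0.32. Libraries were paired by the numbers in the titles. Different numbers within replicates 1 and 2 or within 3 and 4 gave 0.181 to 0.366 and across these sets -0.372 to -0.264, so the values separate the sets and do not separate replicate 3 from 4. Chi-square per gene between replicates was 8.97 to 40.3 within replicates 1 and 2 or 3 and 4 and 136 to 341 across them, so no replicates were merged. The members and gene lists were chosen with earlier results of these data known. Genes named are the 6 receptors, Syk, Lyn, Inpp5d, Ptpn6, Tyrobp, B2m and Fcer1a, the called genes of each list (the 2 largest rises and 2 largest falls where more than 4 were called), and the 3 genes most like each receptor. The own result of a listed regulator gene is not reported here, although the counts over its list include it.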

Additional observations from a re-analysis of the deposited data

Results flagged for a closer look

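Comparing replicates 1 and 2 with replicates 3 and 4, the change from BMDC to BMDC-fer was unequal for 12 of the 25 genes named above that were tested, by edgeR's interaction term with Benjamini-Hochberg adjustment, where 37.8% of all tested genes differed. The sets were recognised from these same libraries, and what distinguishes them was not tested. For Fcgr2b (edgeR adjusted p = 0.0035) log2 fold changes of 0.41 (replicates 1 and 2) and -0.59 (replicates 3 and 4) were measured, and Inpp5d, which encodes the phosphatase that Fcgr2b recruits, had -0.19 and 0.61 in the same order (edgeR adjusted p = 0.000465). Fcer1g, Tyrobp and B2m were called in replicates 1 and 2 alone and not in replicates 3 and 4 alone. Fcer1g was at 0.99 and 0.08 (edgeR adjusted p = 0.0007), Tyrobp at 0.67 and -0.04 (0.0013) and B2m at 0.77 and 0.12 (0.00563). Syk was at 0.12 and -0.31 (edgeR adjusted p = 0.0186), and Ptpn6 at -0.20 and 0.24 (0.00816).

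Of the genes whose change was unequal, those called over all libraries kept the same direction in both sets and differed in size. Pik3r1 was at -0.42 and -1.29 (edgeR adjusted p = 0.000362), Cblb at -0.35 and -0.98 (0.0182), Il10ra at -0.32 and -0.85 (0.0103), C5ar1 at 1.02 and 1.63 (0.0171) and Il10rb at 1.17 and 0.81 (0.0485).

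A single library stood apart from its group. Blnk was 27.7 CPM in BMDC replicate 3 against 22.7, 21.9 and 21.8 CPM in the other BMDC libraries, a gap of 0.836 of the range of the group. This was 1 of 52 groups examined, where chance gives about 2.6.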

How the results depend on the processing

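The lower level of Fcgrt, the higher levels of Fcgr1, Fcgr3, Fcgr4 and Fcer1g and their sides of 0 held in all 16 alternatives, while the calls did not. Fcgrt was called in 13 of 16 and lost its call in 3 of the 8 fits without 1 library, over which its log2 fold change ran from -1.30 to -0.94. Fcgr3 and Fcgr4 were called in none. For Fcgr3 the edgeR adjusted p was 0.000425 in replicates 3 and 4 alone and 0.0183 with the covariate for the sets. Its log2 fold changes there, 0.40 and 0.35, were under the fold threshold. That of Fcgr1 with the covariate, 0.47, was also under it (edgeR adjusted p = 0.0198). Replicates 3 and 4 alone called Fcgr1 at 0.68 and Fcgr2b at -0.59, and replicates 1 and 2 alone called Fcer1g at 0.99 and turned Fcgr2b to 0.41. Without BMDC replicate 4 Fcgr2b was at 0.05, and over the 8 such fits it ran from -0.30 to 0.05. The difference in the activating to inhibitory ratio was -0.08 for replicates 1 and 2 alone and 1.00 for replicates 3 and 4 alone, against 0.46 over all libraries and 0.32 to 0.60 with 1 library left out.

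The number of Fc receptor genes called was 2 in replicates 1 and 2 alone, where 19.4% of all tested genes were called. It was 3 in replicates 3 and 4 alone, where 35.7% of all tested genes were called, and 0 to 1 with 1 library left out. For the pathway lists, whose tested numbers are given above, it was 15 over all libraries, where 9.38% of all tested genes were called. It was 29 in replicates 1 and 2 alone (19.4% of all tested genes) and 29 in replicates 3 and 4 alone (35.7% of all tested genes). With a covariate for the sets it was 23, where 18.3% of all tested genes were called. With 1 library left out it was 7 (without BMDC-fer replicate 4) to 18. Over all genes 1445 calls became 3062 and 5604 in the sets, 2414 with DESeq2, 2815 with the covariate and 565 (without BMDC-fer replicate 4) to 1440 with 1 library left out.

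Under the replicate block 2000 genes were called. Among the lists Cblb lost its call (edgeR adjusted p = 0.0529), and Cd22, Siglecg and Cd72, found by looking at the calls that changed, gained one. The block changed no other call among the Fc receptor and pathway genes whose own results are reported. Directions that turned belonged to genes that were not called over all libraries. Syk was 0.12 and Inpp5d -0.19 in replicates 1 and 2, and Lyn 0.04, Ptpn6 0.24 and Tyrobp -0.04 in replicates 3 and 4. Ptpn6 was 0.01 with the block and with the covariate, and with 1 library left out it ran from -0.20 to 0.13 and Lyn from -0.10 to 0.06. The cause of these changes was not tested. Total counts in place of TMM moved the median log2 fold change of tested genes to -0.09. The lowest count of the 6 genes in any library was 466.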
